A study of Mus musculus with 24 samples.

Results

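The oxidative phosphorylation genes were the protein-coding genes whose mouse symbol begins with Nduf (followed by a, b, c, s or v), Uqcr, Sdha to Sdhd, Cox4 to Cox8, Atp5, mt-Nd, mt-Co, mt-Cytb or mt-Atp. Of 45513 genes in the count tables, 110 carried such a symbol and 105 of these had a mean of 10 or more counts over the 24 libraries. The 105 comprised 92 nuclear-encoded genes and the 13 protein-coding genes of the mitochondrial genome. These 13 are called mitochondrial messenger RNAs below, counted 1 per gene. Among the nuclear-encoded genes, 36 code for subunits of complex I, 4 for complex II and 8 for complex III. Another 14 were placed with complex IV (Ndufa4 included) and 17 with complex V, the ATP synthase. Atp5s, which RefSeq names Dmac2l, was counted with complex V by its symbol alone. The remaining 13 are factors that share the symbols (Ndufaf1 to Ndufaf8, Sdhaf1 to Sdhaf4 and Cox7a2l). The 5 subunit genes of restricted tissue use fell below the count minimum, namely Cox4i2 with a mean of 0.708 counts, Cox6a2 with 3.71, Ndufa4l2 with 0.958, Cox8c with 0.125 and Cox7b2 with 0. Just inside it lay Cox8b with 22.7 counts and Cox6b2 with 59.2.

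RNA was sequenced from sorted intestinal epithelial cells of mice that carry CreERT2 downstream of the Atoh1 coding sequence in its own locus, on both alleles, and 1 copy of a Rosa26 tdTomato reporter. The Atoh1 allele was either wild type (WT) or 9S/T-A, in which 9 serine or threonine residues that precede proline are replaced by alanine. All 4 groups shared the C57BL/6 background, an age of 8 to 16 weeks and 1 intraperitoneal dose of 3 mg tamoxifen given 24 h before collection. EpCAM+ tdTom+ cells were taken from crypt-enriched fractions of the proximal 15 cm of the small intestine (SI) or from the colon, so that Cre, expressed where Atoh1 is, marked the secretory lineage, and every group was a Cre-carrying knock-in with no unmodified control. Each genotype was sampled in each tissue, which gave 4 groups of 6 libraries (3 from females and 3 from males).

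In the inner mitochondrial membrane, complexes I and II pass electrons from NADH and succinate to ubiquinone, complex III passes them on to cytochrome c, and complex IV passes them to oxygen. The proton gradient built by complexes I, III and IV drives ATP synthesis by complex V. Complexes I, III, IV and V each mix subunits made in the cytosol from nuclear genes with a few made inside the organelle from mitochondrial DNA, whereas complex II is wholly nuclear-encoded. In the gut, differentiating epithelial cells and colonocytes that burn short-chain fatty acids are known for a high oxidative metabolism.

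Total gene counts ran from 35967875 to 65796932 per library, and no pair of libraries within a group was identical. Atoh1 stood at 57.7 to 124 CPM (counts scaled to a common library total) over the libraries, and gene counts do not read the altered codons. The libraries numbered 7 were low in several nuclear-encoded genes, including the lowest Cox7a2l level of WT SI and the lowest Sdha level of WT colon. Leaving out every library numbered 7, a choice made after seeing the data, gave 77 nuclear-encoded genes higher in colon in WT and 68 in 9S/T-A, beside 75 and 64 with all libraries, and 5 and 4 mitochondrial messenger RNAs lower, beside 2 and 5. Goblet cell markers summed to 315253 to 508132 CPM over the SI libraries and 36021 to 82339.6 CPM over the colon libraries, with no marker of the list at 0. Such sums are not shares of counts, because the TMM factor was 0.690 to 0.871 in SI libraries and 1.20 to 1.49 in colon libraries.

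The nuclear-encoded genes took a far larger share of all gene counts in colon than in SI, while the shares of the mitochondrially encoded genes overlapped between the tissues. The 92 nuclear-encoded genes held 0.762 ± 0.128% of counts (SD, n = 6) in WT SI and 1.76 ± 0.161% in WT colon. In 9S/T-A cells the values were 0.692 ± 0.132% and 1.67 ± 0.108%. The SI libraries ranged from 0.539 to 0.965% and the colon libraries from 1.49 to 1.95%, with no overlap between tissues and wide overlap between genotypes.

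The 13 mitochondrial messenger RNAs held 2.09 ± 0.540% of counts in WT SI and 3.23 ± 0.848% in WT colon, against 2.25 ± 0.479% and 2.91 ± 0.707% in the mutant tissues, and the ranges of the tissues overlapped. The ratio of mitochondrial to nuclear counts, which needs no scaling between libraries, was 2.85 ± 0.996 in WT SI and 1.88 ± 0.642 in WT colon. It was 3.31 ± 0.758 in 9S/T-A SI and 1.75 ± 0.426 in 9S/T-A colon. In 9S/T-A cells every SI library (2.57 to 4.50) lay above every colon library (1.36 to 2.33), while in WT the ranges of 1.67 to 4.44 and 1.19 to 2.86 overlapped. Reads of mitochondrial genes were partly counted on nuclear copies of mitochondrial DNA, and adding those copies raised the ratio to 4.25 ± 1.48 in WT SI and 2.87 ± 0.964 in WT colon.

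**Figure D1:**
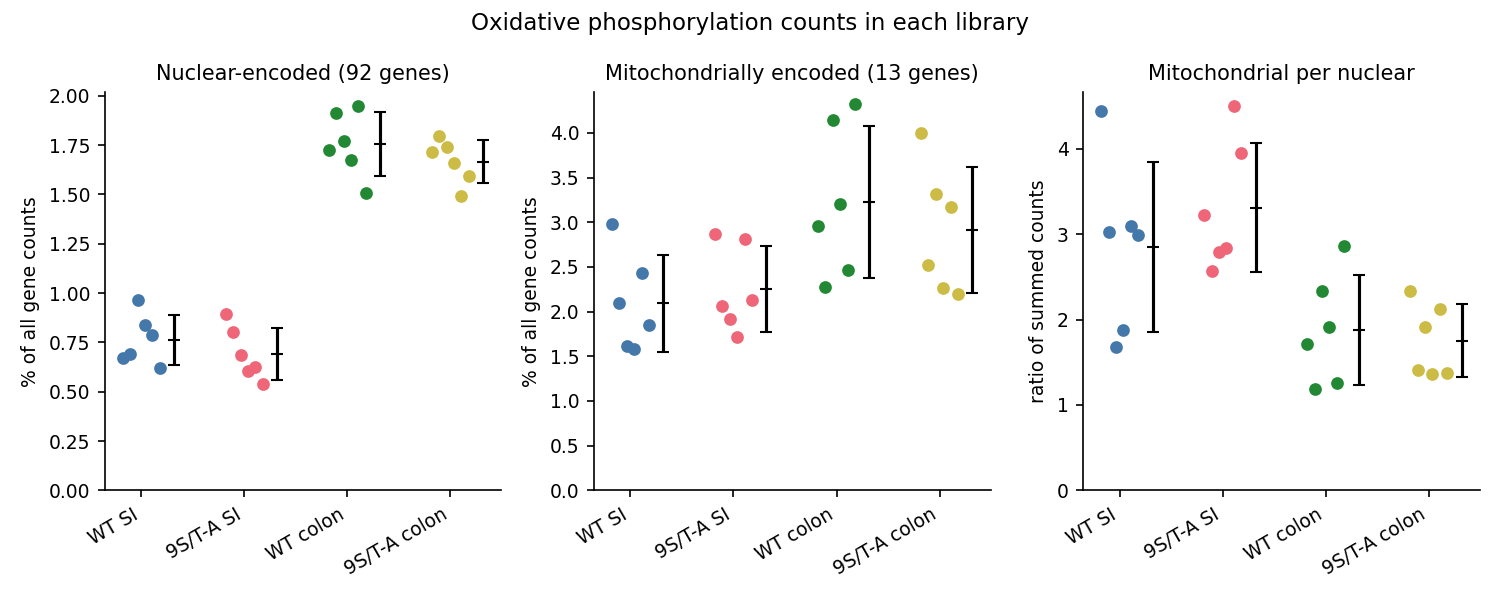
Percent of all gene counts on the 92 nuclear-encoded genes (left) and the 13 mitochondrially encoded genes (middle), and the ratio of the summed counts (right), for each of the 24 libraries by group. Each point is a library and the bar gives mean ± SD (n = 6). The nuclear share of every colon library exceeded that of every SI library, while the ratio was lower on average in colon (1.88 against 2.85 in WT).

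How the shares translate into levels depends on the scaling, because the 20 most abundant genes held 40.3% of counts in WT SI and 14.9% in WT colon. Levels and fold changes below use TMM scaling, under which the median gene differed little between the tissues (0.026 on the log2 scale in WT and 0.042 in 9S/T-A). With plain totals the median of all genes moved to 0.74 in WT and 0.85 in 9S/T-A, and relative to it the nuclear-encoded genes stood at 0.44 and 0.44 and the mitochondrial messenger RNAs at -0.45 and -0.66. Falls of mitochondrial messenger RNAs are therefore given relative to the median gene.

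Per kilobase of annotated exon, the mitochondrial messenger RNAs were the most abundant. In WT SI their median level was 1186 CPM per kb, from 7.65 for mt-Nd6, the only one read from the light-strand promoter, to 6723 for mt-Co1, the catalytic subunit of complex IV. The nuclear-encoded genes had a median of 45.7 CPM per kb. By complex, the WT SI medians were 36.6 for complex I, 58.9 for complex II, 81.5 for complex III, 108 for complex IV and 78.0 for complex V. The factors had a median of 5.40. In WT colon the nuclear median was 60.7 and that of complex IV 187, again the highest of the 5 complexes, while the mitochondrial median was 709.7. Exon lengths merge all annotated transcripts, which lowers the value of genes with long minor transcripts.

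The comparison of colon with SI within each genotype asks how the complexes differ between the secretory cells of the 2 tissues. Most nuclear-encoded genes were higher in colon, most of all those of complex IV and least those of complex II. In WT, 75 of 92 were called higher in colon (edgeR quasi-likelihood test, adjusted p under 0.05), 1 lower and 16 neither, where 33.1% of all 16979 genes tested were called higher and 30.4% lower. In 9S/T-A, 64 were called higher and 2 lower, where 32.9% of 16938 genes were higher and 28% lower. The median log2 fold change of the nuclear-encoded genes was 0.47 in WT, a factor of 1.39, and 0.48 in 9S/T-A, beside 0.026 and 0.042 over all genes. Changes of single genes are log2 fold changes of colon against SI, with WT before 9S/T-A. In 40 of the 92 genes in WT and 38 in 9S/T-A every colon library lay above every SI library, as did 23.8% and 22.5% of the 17126 genes with a mean of 10 counts. Cox8b is in each of these counts but reached the count minimum only through its colon libraries and so had to differ. Without it 74 and 63 of 91 were called higher, 39 and 37 did not overlap, and the medians were 0.47 and 0.48. The tests above took the libraries as unpaired. With the library number as a block, which pairs SI and colon, 77 of the 92 were called higher and 2 lower in WT. In 9S/T-A the block gave 74 higher and 5 lower.

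The cells compared were not of the same makeup. The Paneth cell markers, led by Lyz1 and Defa24, summed to 41639 to 85453 CPM in SI libraries and to 458 to 2225 in colon, which normally holds no Paneth cells. The absorptive markers summed to at least 3797 CPM in SI and at most 473 in colon, with 10 of 13 lower in WT colon. The cycling markers were lower for 8 of 8 in WT and 3 in 9S/T-A, the stem cell markers for 5 and 4 of 8. The tuft markers were lower for 7 and 4 of 7, the enteroendocrine for 10 and 9 of 11, the goblet for 7 of 9 in both genotypes. Some markers were called higher in colon, namely 1 enteroendocrine, 1 stem cell, 2 absorptive and 1 dissociation response in WT, and 1 enteroendocrine, 1 stem cell, 2 absorptive, 1 Paneth and 1 leukocyte in 9S/T-A. They include Gcg, the proglucagon gene of enteroendocrine cells, at 2.92 ± 0.31, adjusted p = 8.55e-07 in 9S/T-A. Among the leukocyte markers Lyz2, close in sequence to the Paneth gene Lyz1, dominated, at 2318 CPM in WT SI and 2.46 in WT colon, while the T cell marker Cd3e stood at 3.67 and 0.129 CPM. Stromal markers summed to 20.2 CPM or less everywhere, and 5 (WT) and 8 (9S/T-A) of 12 dissociation response genes were lower in colon. The part of these markers in the differences of the oxidative phosphorylation genes was not tested. In such bulk samples fewer cells of a type and less RNA per cell cannot be told apart.

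**Figure D2:**
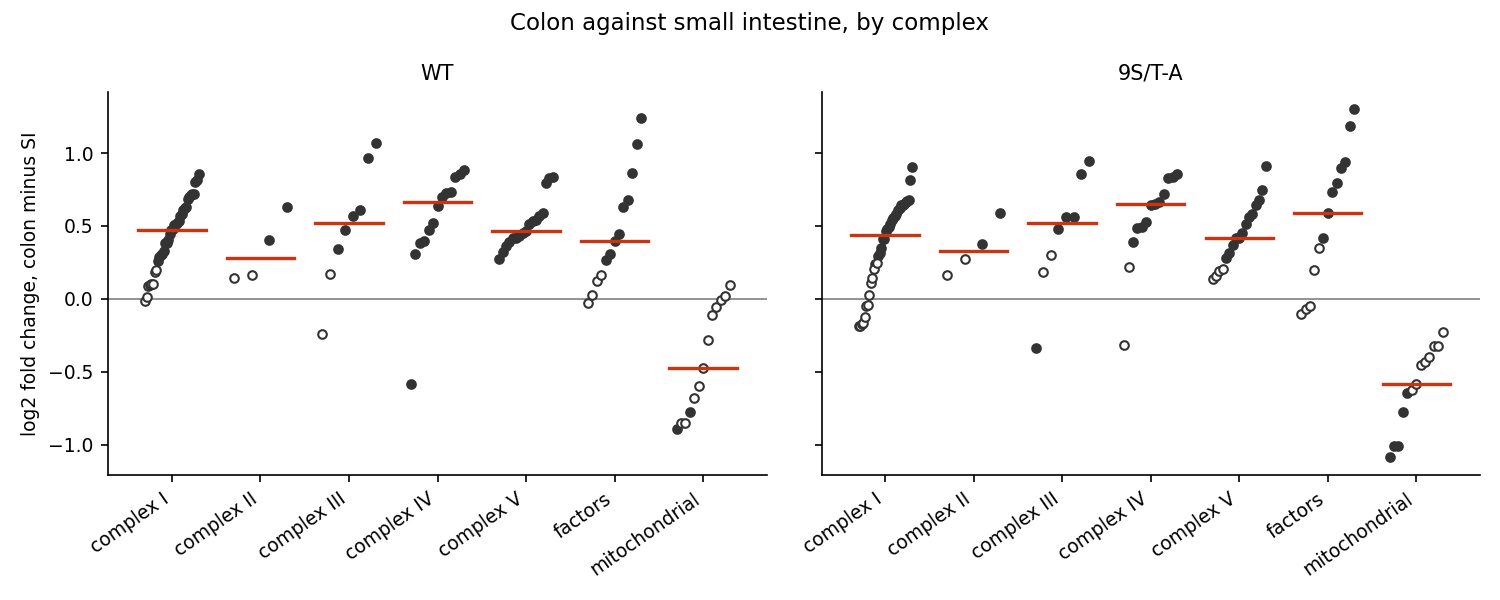
Log2 fold change of colon against SI for the members of each complex, the 13 factors and the 13 mitochondrial messenger RNAs, in WT (left) and 9S/T-A (right). Filled points were called at an adjusted p under 0.05, open points were not, red lines are medians, and Cox8b, at 0 in SI, lies above the axis. The nuclear medians by complex run from 0.28 to 0.67 in WT, with Cox8b counted in complex IV. The mitochondrial median is -0.47 with TMM scaling but 0.29 with plain totals (-0.58 and 0.19 in 9S/T-A).

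Complex I, the entry point for NADH electrons, had 28 of 36 nuclear-encoded subunits higher in colon in WT and 24 in 9S/T-A. Ndufs1, the largest iron-sulfur subunit, ranged over 63.4 to 79.0 CPM (median 69.6) in WT SI and 89.0 to 124 CPM (median 107) in WT colon. The groups did not overlap, and the log2 fold change was 0.57 ± 0.080 (SE, adjusted p = 1.56e-05) in WT and 0.67 ± 0.092 (SE, adjusted p = 1.39e-05) in 9S/T-A. Ndufv1, which holds the NADH binding site, ranged over 81.3 to 124 CPM (median 109) and 113 to 171 CPM (median 153), overlapping between tissues, with changes of 0.44 ± 0.11 (SE, adjusted p = 0.00299) and 0.48 ± 0.13 (SE, adjusted p = 0.0045). Ndufb8, an accessory subunit often used as a marker of assembled complex I, rose by 0.63 ± 0.11 (SE, adjusted p = 0.00016) and 0.65 ± 0.11 (SE, adjusted p = 0.000107). Ndufc2, a membrane arm accessory subunit, was among the 8 largest rises in 9S/T-A (0.91 ± 0.13 SE, adjusted p = 1.67e-05).

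Ndufs4, an accessory subunit needed for a stable complex I, went the other way in 9S/T-A, from 50.9 to 66.9 CPM (median 62.2) in SI to 49.5 to 58.4 CPM (median 55.2) in colon. The groups overlapped, and the difference of -0.19 ± 0.072 (SE, adjusted p = 0.0329) lost its call in 6 of 12 fits that left out a library (SI 3, 4, 5 or 6, or colon 5 or 6), with adjusted p up to 0.0853, and was 0.62 with plain totals. In WT the difference was -0.015 ± 0.077 (SE, adjusted p = 0.878).

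Complex II links the citric acid cycle to the chain. Its catalytic pair did not pass the test in either genotype, with 0.16 ± 0.11 (SE, adjusted p = 0.21) and 0.28 ± 0.14 (SE, adjusted p = 0.0921) for Sdha, the flavoprotein, and 0.15 ± 0.11 (SE, adjusted p = 0.255) and 0.17 ± 0.13 (SE, adjusted p = 0.284) for Sdhb, the iron-sulfur subunit. With the library number as a block, which pairs SI and colon, both passed in 9S/T-A (Sdha 0.28, adjusted p = 0.00388, and Sdhb 0.18, adjusted p = 0.046, edgeR). Sdha also passed without the WT colon library numbered 7 (0.24, adjusted p = 0.0202), without the 9S/T-A SI library numbered 2 (0.37, adjusted p = 0.0167) or without the 9S/T-A colon library numbered 7 (0.36, adjusted p = 0.0163). With all libraries numbered 7 left out it passed in both genotypes (0.19, adjusted p = 0.0229 in WT, and 0.28, adjusted p = 0.0225 in 9S/T-A), as it did in 9S/T-A in the fit of all 24 libraries (0.30, adjusted p = 0.0427). The membrane anchors rose, with 0.63 ± 0.10 (SE, adjusted p = 3.67e-05) and 0.59 ± 0.11 (SE, adjusted p = 0.000344) for Sdhd and 0.40 ± 0.12 (SE, adjusted p = 0.0105) and 0.38 ± 0.14 (SE, adjusted p = 0.0259) for Sdhc. Sdhd ranged over 142 to 216 CPM (median 178) in WT SI and 245 to 307 CPM (median 284) in WT colon, without overlap.

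In complex III, which pumps protons while passing electrons to cytochrome c, 6 of 8 nuclear-encoded subunits were higher in colon in WT and 5 in 9S/T-A. Uqcr10, a small subunit, ranged over 58.3 to 104 CPM (median 80.2) in WT SI and 145 to 203 CPM (median 173) in WT colon. No library overlapped and the change was 1.07 ± 0.12 (SE, adjusted p = 2.01e-06) in WT and 0.95 ± 0.11 (SE, adjusted p = 4.14e-06) in 9S/T-A. The hinge protein Uqcrh changed by 0.97 ± 0.10 (SE, adjusted p = 8.1e-07) and 0.85 ± 0.10 (SE, adjusted p = 4.28e-06), and the Rieske iron-sulfur protein Uqcrfs1 by 0.61 ± 0.12 (SE, adjusted p = 0.000355) and 0.56 ± 0.13 (SE, adjusted p = 0.00139). The core subunit Uqcrc1 did not pass (0.17 ± 0.12 SE, adjusted p = 0.235, and 0.19 ± 0.14 SE, adjusted p = 0.285), except with the number as a block in 9S/T-A (adjusted p = 0.0317). Uqcrq, the small ubiquinone-binding subunit, was lower in 9S/T-A colon, with 104 to 163 CPM (median 142) in SI and 92.4 to 138 CPM (median 104) in colon. These groups overlapped, the difference was -0.34 ± 0.12 (SE, adjusted p = 0.0296), and it lost its call in 7 of 12 fits without a library (SI 2, 3 or 4, or colon 2, 5, 6 or 7, adjusted p up to 0.0686) and turned to 0.46 with plain totals.

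Complex IV, cytochrome c oxidase, had the largest median of the 5 complexes, 0.67 in WT and 0.65 in 9S/T-A, with 13 and 12 of 14 genes higher in colon. Both medians and both counts include Cox8b, which reached the count minimum through its colon libraries alone and so had to differ. Cox4i1, the ubiquitous form of the largest nuclear-encoded subunit, ranged over 232 to 407 CPM (median 346) in WT SI and 474 to 657 CPM (median 584) in WT colon without overlap. Its change was 0.73 ± 0.12 (SE, adjusted p = 8.48e-05) in WT and 0.65 ± 0.12 (SE, adjusted p = 0.000242) in 9S/T-A. Cox5a, a matrix-side subunit, changed by 0.38 ± 0.12 (SE, adjusted p = 0.00959) and 0.39 ± 0.13 (SE, adjusted p = 0.0153), and Cox8a, the smallest subunit, by 0.88 ± 0.12 (SE, adjusted p = 6.93e-06) and 0.86 ± 0.11 (SE, adjusted p = 9.86e-06).

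Of the 17 genes placed with complex V, Atp5s included, all were called higher in WT colon and 13 in 9S/T-A colon, and none fell. Atp5b, the catalytic beta subunit, ranged over 841 to 1314 CPM (median 1096) in WT SI and 1101 to 1749 CPM (median 1561) in WT colon. The ranges overlapped and the change was 0.42 ± 0.13 (SE, adjusted p = 0.00888) in WT and 0.51 ± 0.14 (SE, adjusted p = 0.0056) in 9S/T-A. Its partner Atp5a1, the alpha subunit, changed by 0.52 ± 0.13 (SE, adjusted p = 0.00323) and 0.65 ± 0.17 (SE, adjusted p = 0.00366). Atp5g2, 1 of 3 genes for the c-ring subunit, had the largest rise of the complex in 9S/T-A, 0.91 ± 0.13 (SE, adjusted p = 1.73e-05). It is among the uncertain genes, since annotated near-identical copies held counts equal to 87.9% of its own.

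After Cox8b, described with the isoforms, the largest rise was that of Cox7a2l in WT and of Sdhaf4 in 9S/T-A. Cox7a2l is known as a supercomplex factor. It ranged over 69.3 to 124 CPM (median 122) in WT SI and 226 to 289 CPM (median 278) in WT colon. Every colon library was above every SI library, with a change of 1.24 ± 0.12 (SE, adjusted p = 4.24e-07) in WT and 1.18 ± 0.12 (SE, adjusted p = 5.29e-07) in 9S/T-A. Sdhaf4, an assembly factor that binds the flavinated Sdha protein, ranged over 3.95 to 4.64 CPM (median 4.31) and 8.03 to 10.6 CPM (median 9.30) and changed by 1.06 ± 0.10 (SE, adjusted p = 1.18e-07) and 1.30 ± 0.15 (SE, adjusted p = 2.38e-06). Ndufaf7, a methyltransferase for a complex I subunit, changed by 0.86 ± 0.075 (SE, adjusted p = 7.21e-08) and 0.94 ± 0.10 (SE, adjusted p = 1.5e-06). Ndufaf5, a hydroxylase for complex I assembly, was among the 8 largest rises in 9S/T-A (0.90 ± 0.16 SE, adjusted p = 0.000154). In all, 9 and 8 of the 13 factors were higher in colon and none was called lower.

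Short reads cannot be assigned to 1 gene where a copy is identical over the read length, and such a read was counted at 1 of its positions. For 19 of the 92 nuclear-encoded genes and 8 of the 13 mitochondrial genes, annotated copies held counts of at least 5% of the gene's own, so their levels are uncertain. The nuclear genes concerned include Atp5l (100.3%), Cox7c (71.5%) and Ndufab1 (34.9%), with smaller shares for Cox7a2l (8.55%) and Uqcrh (6.04%). Among the mitochondrial ones, the copies of mt-Co2, mt-Co3, mt-Atp6, mt-Nd3 and mt-Nd4l held about as many counts as the genes themselves or more. The others are mt-Co1 (59.35%), mt-Nd4 (29.8%) and mt-Nd2 (5.18%). With the copies' counts added, 75 and 64 nuclear-encoded genes were called higher in colon, as many as without.

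The mitochondrial messenger RNAs, made from 2 long transcripts of the circular genome, did not share the rise of the nuclear genes. They were unequal among themselves. The annotated spans of mt-Nd4l (9877 to 10173) and mt-Nd4 (10167 to 11544) overlap, as do those of mt-Atp8 (7766 to 7969) and mt-Atp6 (7927 to 8607). Genes of such a pair are not independent of each other. The 7 mt-Nd genes, which code for complex I subunits, made up 16.8 ± 3.34% (SD, n = 6) of the mitochondrial messenger RNA counts in WT SI and 11.6 ± 2.08% in WT colon. In 9S/T-A they made up 17.1 ± 2.76% and 12.5 ± 2.72%. The 3 mt-Co genes of complex IV went from 57.5 ± 2.15% to 64.2 ± 1.48% in WT and from 57.9 ± 2.26% to 64.3 ± 2.40% in 9S/T-A. For the mt-Co genes the WT ranges of 54.7 to 60.8% and 61.9 to 65.5% did not overlap, while those of 9S/T-A did (55.3 to 61.7% and 60.7 to 66.7%). The mt-Nd ranges overlapped in both genotypes, for instance at 12.9 to 21.3% and 9.85 to 16.5% in 9S/T-A. These shares within a library need no scaling, and they carry no test because they are sums over the genes chosen. They leave out reads counted on the nuclear copies, whose part was unequal between genes. For instance, copies held 123.3% of the gene's own count for mt-Co2 and 5.18% for mt-Nd2.

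With TMM scaling, 2 of the 13 were called lower in WT colon (30.4% of all genes) and 5 in 9S/T-A colon (28%), and none higher. The share lower was thus below that of all genes in WT and above it in 9S/T-A. With plain totals none of the 13 was called lower, and 5 were called higher in WT and 2 in 9S/T-A. mt-Nd2 ranged over 364 to 1399 CPM (median 685) in WT SI and 229.8 to 649 CPM (median 344) in WT colon. The groups overlapped, with -0.89 ± 0.33 (SE, adjusted p = 0.0261) in WT and -1.01 ± 0.30 (SE, adjusted p = 0.00871) in 9S/T-A, and with plain totals neither difference passed. mt-Nd4 ranged over 858 to 3214 CPM (median 1513) and 560.4 to 1491 CPM (median 877) in WT, again overlapping, with -0.77 ± 0.32 (SE, adjusted p = 0.0479) in WT and -1.01 ± 0.29 (SE, adjusted p = 0.00704) in 9S/T-A. mt-Nd4l and mt-Nd5 were called lower in 9S/T-A (-1.09 ± 0.32 SE, adjusted p = 0.00831, and -0.77 ± 0.32 SE, adjusted p = 0.0484), with WT values of -0.85 ± 0.38 (SE, adjusted p = 0.0609) and -0.68 ± 0.33 (SE, adjusted p = 0.0841), values of 0.0058 (9S/T-A) and 0.088 (WT) for mt-Nd5 with plain totals, and no call for a difference between genotypes (adjusted p = 0.963 and 0.983). In WT both were called without the colon library numbered 7 or the SI library numbered 4, and mt-Nd4l also without the colon library numbered 4. The median over the 13 was -0.47 in WT and -0.58 in 9S/T-A, and the WT value shrank to -0.16 without the SI library numbered 2.

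mt-Cytb, the cytochrome b of complex III, had the smallest SE of the 5 mitochondrial falls in 9S/T-A. It ranged over 4237 to 5719 CPM (median 4529) in SI and 2232 to 3961 CPM (median 3091) in colon, every colon library below every SI library with TMM scaling, with -0.64 ± 0.15 (SE, adjusted p = 0.00207) in 9S/T-A and -0.28 ± 0.16 (SE, adjusted p = 0.127) in WT, and the product term did not pass (adjusted p = 0.666), whereas with plain totals the differences were 0.14 and 0.45. mt-Co1 ranged over 8071 to 15429 CPM (median 9721) in WT SI and 8049 to 15025 CPM (median 11272) in WT colon, and its difference of 0.10 ± 0.19 (SE, adjusted p = 0.688) in WT and -0.23 ± 0.17 (SE, adjusted p = 0.276) in 9S/T-A did not pass. mt-Atp6, a proton channel subunit of complex V, gave -0.054 ± 0.23 (SE, adjusted p = 0.856) and -0.32 ± 0.23 (SE, adjusted p = 0.24), and mt-Nd1 gave -0.47 ± 0.31 (SE, adjusted p = 0.202) and -0.58 ± 0.32 (SE, adjusted p = 0.124).

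With the library number as a block, 1 mitochondrial messenger RNA was called lower in WT colon (mt-Nd2, adjusted p = 0.045, while mt-Nd4 had 0.0783) and 11 in 9S/T-A colon, all but mt-Co1 (adjusted p = 0.151) and mt-Nd6 (0.103). With the block, 16 of the 105 genes were lower and 74 higher in 9S/T-A colon, against 7 and 64 without. With the counts of copies added, 1 was called lower in WT colon, and mt-Nd4 had an adjusted p of 0.0525, of 0.0532 in the fit of all 24 libraries and of 0.0886 in DESeq2. DESeq2 gave mt-Nd5 in 9S/T-A 0.0722. The WT calls rested on single libraries, because no mitochondrial messenger RNA was called without the WT SI library numbered 2, 3 or 6 or the WT colon library numbered 2, 3 or 6. mt-Nd2 then had an adjusted p of up to 0.127, and mt-Nd4 of up to 0.225. mt-Nd4 was also not called without the WT SI library numbered 7 or the WT colon library numbered 5. In 9S/T-A the number called ran from 4 to 8, the highest without the colon library numbered 2, and mt-Nd5 lost its call in 8 of 12 fits (without SI 2, 4, 6 or 7, or colon 3, 5, 6 or 7, adjusted p up to 0.127).

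**Figure D3:**
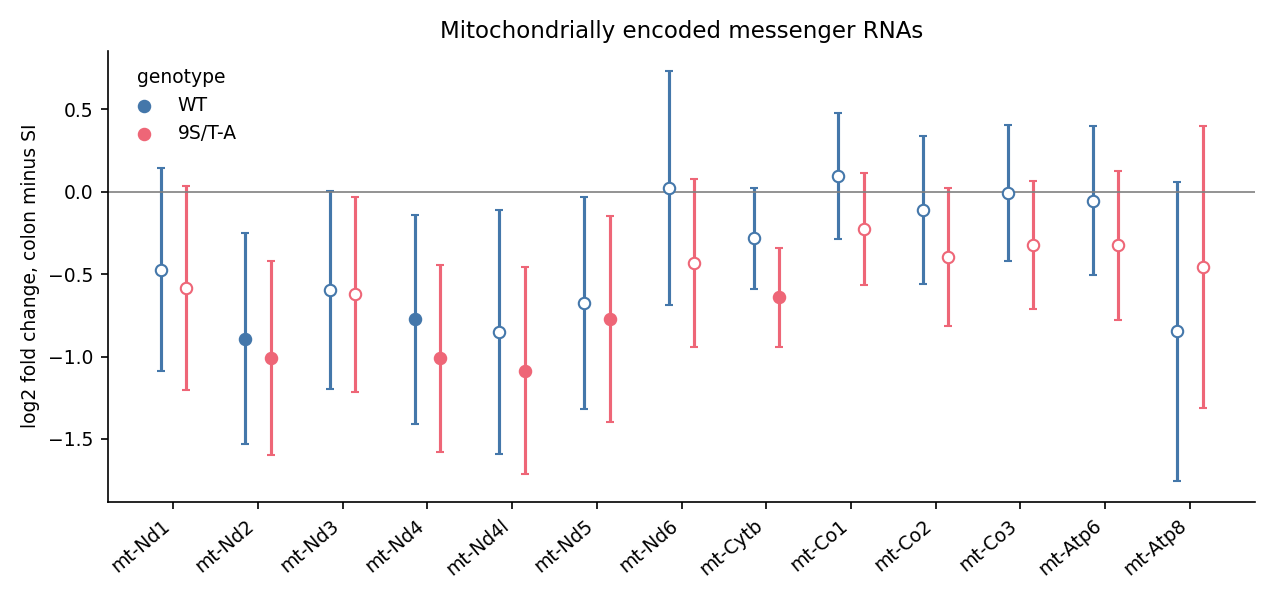
Log2 fold change of colon against SI, with TMM scaling, for the 13 mitochondrial messenger RNAs in WT and 9S/T-A. Points are estimates, bars are 95% intervals, and filled points were called at an adjusted p under 0.05. The mt-Nd genes other than mt-Nd6 lie between -1.09 and -0.47, and the mt-Co genes between -0.40 and 0.10. With plain totals only mt-Nd2, mt-Nd4, mt-Nd4l and, in WT, mt-Atp8 stay below 0.

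Complex IV has subunits with separate genes for muscle and for other tissues, and levels per kilobase of exon show which were in use. Cox4i1 stood at 220.1 ± 39.9 CPM per kb (SD, n = 6) in WT SI and 373 ± 38.5 in WT colon, whereas Cox4i2, a form found mainly in lung, had 0 counts in the 12 SI libraries and 8 and 9 counts in the WT and 9S/T-A colon libraries together. Cox6a1 stood at 278 ± 46.9 and 395 ± 75.9 CPM per kb and its muscle counterpart Cox6a2 at 0.0532 ± 0.0772 and 0.147 ± 0.0898. Ndufa4 stood at 219 ± 35.6 and 295 ± 36.5, and Ndufa4l2, known as a hypoxia-responsive paralog, at 0.0244 ± 0.0215 and 0.0131 ± 0.0118. The ubiquitous form thus held nearly all counts in these 3 families in both tissues.

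Cox7a1, the heart and skeletal muscle form of subunit VIIa, was an exception among the muscle forms. Its level ranged over 5.14 to 14.1 CPM (median 8.47) in WT SI and 10.6 to 20.3 CPM (median 17.5) in WT colon. The groups overlapped, and it was higher in colon by 0.86 ± 0.22 (SE, adjusted p = 0.00273) in WT and 0.83 ± 0.24 (SE, adjusted p = 0.0071) in 9S/T-A. Per kilobase its median was 16.2% of that of the ubiquitous Cox7a2 in WT SI and 20.5% in WT colon, and in 9S/T-A the medians were 18.5% and 21.4%, with overlap between all of them. Cox7a2 itself rose by 0.70 ± 0.11 (SE, adjusted p = 5.8e-05) and 0.66 ± 0.11 (SE, adjusted p = 0.000123). Cox7a2l stood at 74.0 ± 8.17% of Cox7a2 in WT SI and 108 ± 7.55% in WT colon, and these ranges of 63.4 to 85.1% and 96.9 to 117% did not overlap.

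Cox8b, the muscle and brown fat form of subunit VIII (ENSMUSG00000025488, chromosome 7, 140898943 to 140900446 in GRCm38), was read in colon and not in SI. All 12 SI libraries held 0 counts, against 25 to 85 counts per WT colon library and 24 to 58 per 9S/T-A colon library. Its level was 0.375 to 1.29 CPM (median 0.737) in WT colon and 0.295 to 0.858 CPM (median 0.536) in 9S/T-A colon. Against a floor of 3 counts over the SI group it was at least 62.5-fold higher in WT colon and at least 49.2-fold in 9S/T-A colon. No test is given, because it entered the members through colon alone. Per kilobase it stood at 0.296 ± 0.115% of Cox8a in WT colon and 0.238 ± 0.0902% in 9S/T-A colon. Cox8c had 3 counts in all 24 libraries together.

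Cox6b2, the testis form of subunit VIb, was the only nuclear-encoded gene called lower in WT colon, from 0.767 to 2.08 CPM (median 1.24) to 0.638 to 1.27 CPM (median 0.950). The groups overlapped and the difference of -0.58 ± 0.24 (SE, adjusted p = 0.0479) was not called in 9 of 12 fits that left out a library (SI 2, 3, 4, 5 or 6, or colon 3, 4, 5 or 7, adjusted p up to 0.174) and was 0.15 with plain totals. In 9S/T-A it was -0.32 ± 0.27 (SE, adjusted p = 0.33). Cox6b1, the common form, was at 358 ± 50.6 CPM per kb in WT SI, where Cox6b2 was at 1.22 ± 0.420, and rose by 0.31 ± 0.10 (SE, adjusted p = 0.0171) in WT. In 9S/T-A Cox6b1 gave 0.22 ± 0.11 (SE, adjusted p = 0.116), which passed with the block (adjusted p = 0.0163) and without the SI library numbered 3 (adjusted p = 0.035).

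**Figure D4:**
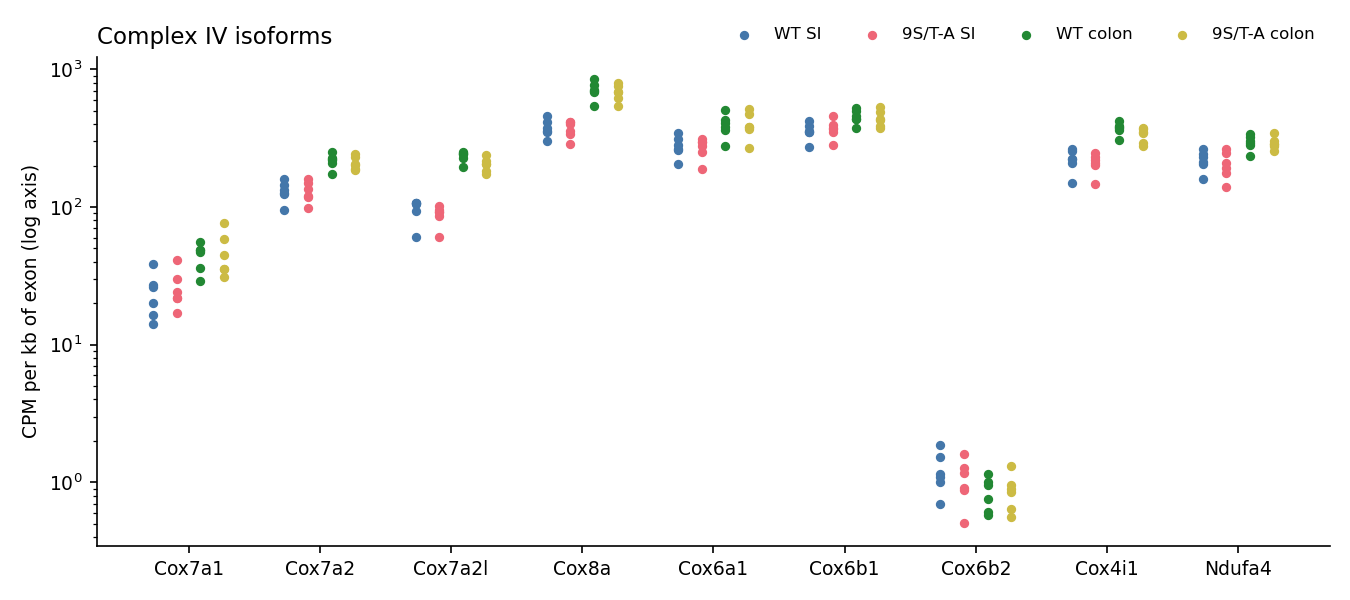
Level per kilobase of exon, on a log axis, of 8 complex IV genes and the factor Cox7a2l in every library, coloured by group. Cox7a1 lies below Cox7a2, Cox6b2 lies near 1 CPM per kb in all groups, and the points of the other genes lie higher on the whole in the colon groups. Cox8b is left out because it was at 0 in SI.

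Since 75 (WT) and 64 (9S/T-A) of the 92 nuclear-encoded genes were called higher in colon, the promoters of the 92 were searched for 4 motifs linked to mitochondrial genes. RefSeq promoter windows (GRCm38.p6, from 250 bases before to 50 after the start) were found for 79 of the 92 genes, in 84 windows. For the other 13, among them Atp5a1, Cox4i1, Ndufs1, Sdhc and Uqcrq, no window was found. On either strand, the NRF1 motif GCGCATGCG was in 11.9% of members' windows and 1.75% of all 32817 windows, the ETS factor motif CCGGAAG in 25% and 8.86%, the YY1 motif AAGATGGCG in 9.52% and 1.4%, and the estrogen-related receptor motif TCAAGGTCA in 2.38% and 0.424%. Members with 1 or more of these motifs (34) had a median log2 fold change of 0.40 in WT, with 26 called higher in colon. Those with none (45, among them Cox8b) had 0.54, with 40 called higher. These matches are descriptions of letters and carry no test.

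These 4 windows are shown because together they hold all 4 motifs and because their genes span the changes described, with Cox8a, Cox6a1 and Sdhd higher in colon and Ndufs4 not. They are written 5′ to 3′ on the gene's strand with motif letters in capitals, as their reverse complement where the motif lies on the other strand. The Cox6a1 window (chr5:115348909-115349208, minus strand) holds the NRF1 motif, whose letters match on both strands at overlapping places, and an ETS motif. The Cox8a window (chr19:7217567-7217866, minus strand) holds the ETS motif at 2 places. The Sdhd window (chr9:50603800-50604099, minus strand) holds an ETS and an estrogen-related receptor motif. The Ndufs4 window (chr13:114388045-114388344, minus strand) holds a YY1 motif.
Cox6a1: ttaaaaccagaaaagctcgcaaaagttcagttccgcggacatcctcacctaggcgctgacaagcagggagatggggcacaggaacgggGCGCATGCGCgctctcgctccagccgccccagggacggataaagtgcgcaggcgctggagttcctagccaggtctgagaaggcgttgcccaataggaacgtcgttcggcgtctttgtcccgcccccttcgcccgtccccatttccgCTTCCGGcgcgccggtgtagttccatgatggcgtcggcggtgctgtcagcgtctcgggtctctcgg
Cox8a: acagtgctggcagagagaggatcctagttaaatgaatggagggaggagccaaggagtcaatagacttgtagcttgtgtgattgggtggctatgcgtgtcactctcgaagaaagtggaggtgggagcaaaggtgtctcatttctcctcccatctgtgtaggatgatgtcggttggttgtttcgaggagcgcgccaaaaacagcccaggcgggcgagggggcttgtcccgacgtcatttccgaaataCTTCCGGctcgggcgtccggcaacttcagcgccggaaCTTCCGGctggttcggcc
Sdhd: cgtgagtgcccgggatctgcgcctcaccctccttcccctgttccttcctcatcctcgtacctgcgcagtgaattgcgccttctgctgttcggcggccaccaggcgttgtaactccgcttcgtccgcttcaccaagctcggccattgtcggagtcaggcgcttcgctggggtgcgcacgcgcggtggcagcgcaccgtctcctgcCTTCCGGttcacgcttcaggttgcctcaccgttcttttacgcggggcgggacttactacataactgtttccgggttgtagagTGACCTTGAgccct
Ndufs4: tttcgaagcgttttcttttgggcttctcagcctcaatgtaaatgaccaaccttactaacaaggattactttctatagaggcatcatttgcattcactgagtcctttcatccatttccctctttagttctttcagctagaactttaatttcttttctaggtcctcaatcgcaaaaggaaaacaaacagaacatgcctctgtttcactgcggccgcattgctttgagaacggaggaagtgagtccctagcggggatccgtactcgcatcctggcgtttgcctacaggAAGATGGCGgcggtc
Cox6a1, the common form of subunit VIa, rose by 0.47 ± 0.14 (SE, adjusted p = 0.00701) in WT and 0.53 ± 0.15 (SE, adjusted p = 0.00672) in 9S/T-A.

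The comparison of 9S/T-A with WT within each tissue asks whether the altered Atoh1 protein changes these genes. No oxidative phosphorylation gene was called in either tissue. In SI, 0 of 104 tested (Cox8b was at 0) passed in edgeR, 3 had an unadjusted p under 0.05 and DESeq2 called 0, where 1.94% of 16236 genes were called in edgeR. In colon, 0 of 105 passed, 1 had an unadjusted p under 0.05 and DESeq2 called 0, where 0.318% of 16997 genes were called. The median log2 fold change in SI was -0.0062 for the nuclear-encoded genes and 0.18 for the mitochondrial messenger RNAs, beside 0.00023 over all genes. In colon both medians were close to 0, -0.035 and -0.045. The members' values lay between -0.34 and 0.42 in SI (median SE 0.13), while those of colon lay between -0.37 and 0.14 (median SE 0.094), and none was detectable as a difference at this spread. The mitochondrial median of SI ranged from 0.019 to 0.40 when 1 library was left out (lowest without the 9S/T-A library numbered 6, highest without the WT library numbered 2), and that of colon from -0.19 to 0.19 (9S/T-A library 2, WT library 7).

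The member with the smallest p in SI was Ndufa6, an accessory subunit of complex I, at 65.1 to 109 CPM (median 82.8) in WT and 98.9 to 127 CPM (median 109.8) in 9S/T-A. The groups overlapped and the difference was 0.34 ± 0.12 (SE, adjusted p = 0.177). It was followed by Ndufaf2, a complex I assembly factor (-0.24 ± 0.11 SE, adjusted p = 0.297), Sdhaf4 (-0.34 ± 0.16 SE, adjusted p = 0.301) and Ndufaf3, another complex I assembly factor (0.17 ± 0.10 SE, adjusted p = 0.42). In colon the smallest p belonged to Cox7a2l, at 226 to 289 CPM (median 278) in WT and 199 to 275 CPM (median 235) in 9S/T-A, with overlap and -0.18 ± 0.079 (SE, adjusted p = 0.526). Ndufs7, an iron-sulfur subunit of complex I (-0.12 ± 0.067 SE, adjusted p = 0.684), Cox4i1 (-0.14 ± 0.087 SE, adjusted p = 0.77) and Ndufa3, a complex I accessory subunit (-0.11 ± 0.075 SE, adjusted p = 0.812), came next.

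For the genes followed in every comparison the differences of 9S/T-A against WT were small. In SI, with 95% intervals from the SE, they were -0.10 (-0.29 to 0.080) for Ndufs1, -0.064 (-0.32 to 0.19) for Ndufv1, -0.073 (-0.33 to 0.18) for Ndufb8, -0.15 (-0.38 to 0.090) for Sdha and -0.034 (-0.30 to 0.23) for Sdhb. For Uqcrc1 the difference was -0.072, for Uqcrfs1 0.018, for Cox4i1 -0.079, for Cox5a 0.0099, for Atp5a1 -0.13 and for Atp5b -0.11. In colon the same 11 genes lay between -0.14 (Cox4i1) and 0.038 (Cox5a). Of the mitochondrial messenger RNAs, mt-Nd1 differed by 0.19 (-0.41 to 0.80) in SI, mt-Nd4 by 0.19 (-0.40 to 0.78), mt-Cytb by 0.19 (-0.092 to 0.47), mt-Co1 by 0.22 (-0.11 to 0.54) and mt-Atp6 by 0.14 (-0.29 to 0.57). In SI 12 of the 13 had a value above 0, all but mt-Atp8, and in colon 5 did.

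**Figure D5:**
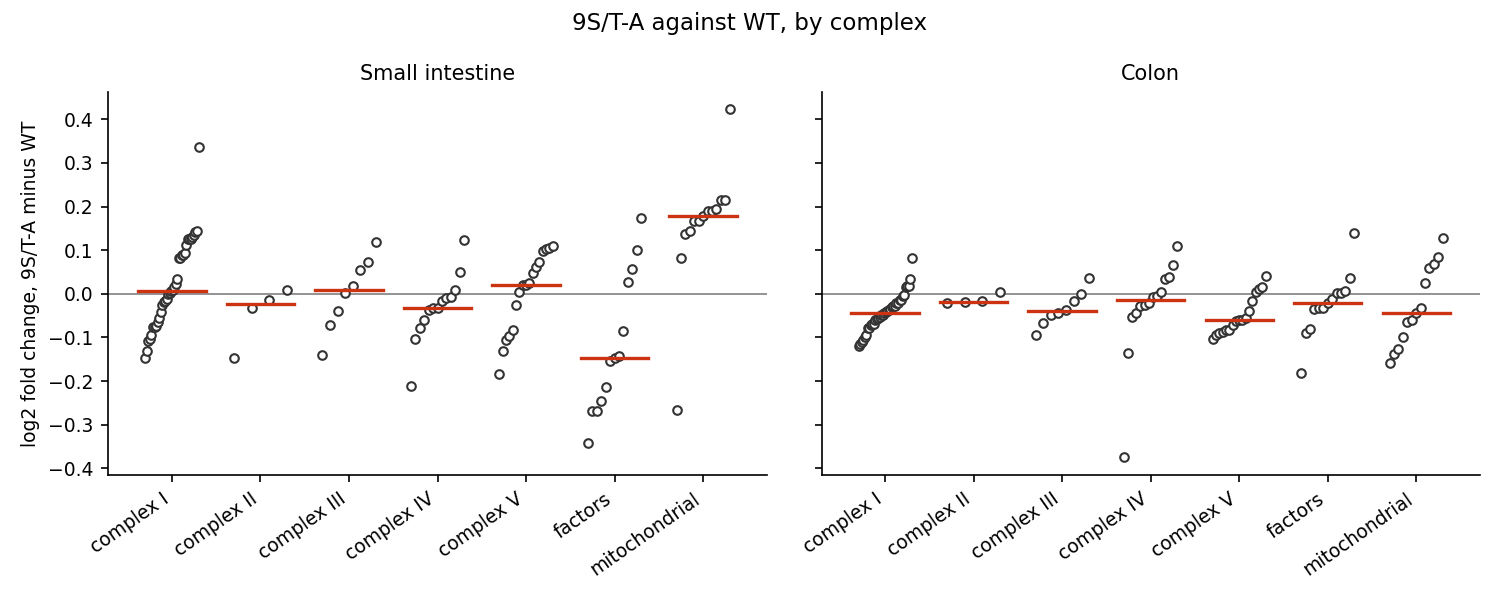
Log2 fold change of 9S/T-A against WT in SI (left) and colon (right) for the members by complex. Points are genes, open because none was called at an adjusted p under 0.05, and red lines are medians. The 2 points farthest above 0 in SI are mt-Nd6 (0.42) and Ndufa6 (0.34), and the lowest in colon is Cox8b (-0.37).

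Some cell type markers were called between the genotypes, where 1.94% of all genes were called in SI and 0.318% in colon. Of the Paneth markers, 5 of 9 were lower in 9S/T-A SI, where their sum ranged over 41639 to 64820.4 CPM against 53678 to 85453 in WT. Of the tuft markers 2 of 7, of the enteroendocrine 1 of 11 and of the stromal 1 of 3 were lower. In colon, 1 of 9 goblet markers was higher in 9S/T-A. The part of these in the values above was not tested.

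Whether the genotype difference was unequal in the tissues was asked with the product term over all 24 libraries. In edgeR 0 of 105 genes passed, 2 had an unadjusted p under 0.05 and DESeq2 called 0, where 0.412% of 17953 genes were called in edgeR. Cox8b, at 0 in both SI groups, could not contribute to this term. The smallest p belonged to Ndufa6 (-0.43 ± 0.15 SE, adjusted p = 0.249), whose 9S/T-A difference was 0.34 in SI and -0.072 in colon. With the number within each genotype as a block, it was the 1 member that passed (-0.45, adjusted p = 0.0457). Next came Ndufa3 (-0.27 ± 0.13 SE, adjusted p = 0.499), Ndufa13, a complex I subunit also known as GRIM-19 (-0.26 ± 0.15 SE, adjusted p = 0.617), and Ndufaf4, an assembly factor (0.33 ± 0.19 SE, adjusted p = 0.64). The median product term was -0.051 for the nuclear-encoded genes, -0.24 for the mitochondrial messenger RNAs and -0.015 over all genes.

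Genes of the wider pathway outside the symbol rule were read from the same fits, where 33.1% of all genes were called higher and 30.4% lower in WT colon. In WT colon against SI, the electron carriers and exchangers (cytochrome c, coenzyme Q synthesis, adenine nucleotide and phosphate carriers) had 12 of 19 higher and 2 lower, led by Coq2 and Coq9 of coenzyme Q synthesis (0.84 ± 0.071, adjusted p = 6.22e-08, and 0.79 ± 0.078, adjusted p = 3.34e-07). Other assembly factors had 20 of 37 higher and 1 lower, led by Surf1 of complex IV assembly (1.33 ± 0.073, adjusted p = 3.42e-10) and Coa4 (0.93 ± 0.092, adjusted p = 3.68e-07). The citric acid cycle had 13 of 18 higher and 2 lower, with Suclg2, a succinyl-CoA synthetase subunit, at 1.27 ± 0.10, adjusted p = 3.34e-08. Fatty acid oxidation had 11 of 18 higher and 0 lower, with Acads, the short-chain acyl-CoA dehydrogenase, at 1.99 ± 0.13, adjusted p = 2.29e-09. Glycolysis had 6 of 19 higher and 8 lower, a share higher near that of all genes, from the lactate exporter Slc16a3 (-5.32 ± 0.17, adjusted p = 7.33e-13) to Ldhb, a lactate dehydrogenase subunit (4.21 ± 0.23, adjusted p = 4.05e-10).

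Genes for the machinery that reads mitochondrial DNA were for the most part higher in colon or not called. Of the genes for mitochondrial transcription, RNA processing and translation factors, 16 of 27 were higher in WT colon and none lower, with medians of 0.26 in WT and 0.37 in 9S/T-A, led by Tbrg4, an RNA-processing factor (0.51 ± 0.071, adjusted p = 1.49e-05), and Hsd17b10, a subunit of mitochondrial RNase P (0.69 ± 0.11, adjusted p = 5.95e-05). The mitochondrial ribosomal proteins had 41 of 76 higher and 4 lower, with Mrps6 at 1.59 ± 0.11, adjusted p = 8.08e-09. The regulators of mitochondrial biogenesis had 5 of 18 higher and 9 lower, where 33.1% of all genes were higher and 30.4% lower. The share higher was thus near that of all genes and the share lower above it. Among them were Prkaa2, a catalytic subunit of AMP-activated kinase, at 2.43 ± 0.093, adjusted p = 5.3e-12 and Hnf4a, an epithelial nuclear receptor, at -1.01 ± 0.085, adjusted p = 5.44e-08. In 9S/T-A the counts over all 8 lists were 129 of 232 higher and 28 lower, where 32.9% of all genes were higher and 28% lower, against 124 and 26 in WT. For 9S/T-A against WT, edgeR called 0 of these 232 genes in SI (16 at an unadjusted p under 0.05, DESeq2 2) and 0 in colon (10, DESeq2 0).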

How the data were processed

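RNA was measured in 24 libraries of sorted EpCAM+ tdTom+ cells (TruSeq Stranded mRNA kit, 50-base single-end reads). Per the study's methods and the submitters' processing notes, the authors aligned reads with TopHat2 (2.1.1) to GRCm38.p3 and deposited raw counts per gene made with featureCounts (Subread 1.5.2), strand-aware, primary alignments only, so that a read with several equal positions was counted at 1 of them. Symbols came from GENCODE M21, which named 44671 of 45513 genes (98.15%).

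Counts were tested with edgeR 4.0.16 (R 4.3.3): filterByExpr, TMM, quasi-likelihood F test, two-sided, Benjamini-Hochberg over all genes tested, called at an adjusted p under 0.05. SE is the absolute log2 fold change over the square root of F. Each of the 4 two-group comparisons used its 12 libraries, the product term all 24. Levels are CPM on TMM-scaled totals of all 24. The fits were checked on counts drawn with known changes in a small part of the genes, as many up as down. That check cannot bear on the scaling between tissues, where most genes tested were called. Copies are annotated transcripts sharing 50 bases with at most 1 difference (BLAST 2.17.0); the added counts were of copies with an exact window.

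Named genes were fixed representatives of each complex, isoform families, all mitochondrial messenger RNAs, up to 8 called rises and 8 falls per tissue comparison, the 4 smallest p per genotype comparison and product term, and the 2 smallest p of a list. Members, lists and tests were chosen with earlier results of these data known. Labels do not say whether replicates are separate animals, and p-values then measure the spread between these libraries. SI and colon libraries of a number deviated from their group means together. The correlations over 17126 genes were 0.170 to 0.570 in WT and 0.158 to 0.651 in 9S/T-A. The number was therefore taken as pairing tissues in the block fits, while the main tissue tests treated the libraries as unpaired. A number had the same sex in every group, and whether it marks a single mouse was not tested. Alternatives were DESeq2 1.42.0, RLE factors, plain totals, mitochondrial genes removed, other filters, sex, the block, added copies, single libraries left out and, chosen after seeing the data, all libraries numbered 7 left out. Depth was 35967875 to 65796932 counts. The zero floor of 3 counts covers counting error only.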

Additional observations from a re-analysis of the deposited data

Results flagged for a closer look

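Of 160 sets of 6 libraries examined (the shares, their ratio and the named genes in each group), 5 had a library farther from the rest than Dixon's 95% limit, and chance alone flags about 1 in 20 sets. Each was the lowest of its group and carried the number 7. Sdha in WT colon library 7 stood at 226 CPM, where the other 5 lay between 315 and 357. Uqcrc1 in 9S/T-A colon library 7 stood at 207 CPM, where the other 5 lay between 277 and 316. Atp5b in 9S/T-A colon library 7 stood at 1121 CPM, where the other 5 lay between 1471 and 1664. Cox7a2l in WT SI library 7 stood at 69.3 CPM, where the other 5 lay between 108 and 124. Ndufs4 in 9S/T-A SI library 7 stood at 50.9 CPM, where the other 5 lay between 61.2 and 66.9. These libraries also held the lowest nuclear-encoded share of counts in WT SI, 9S/T-A SI and WT colon. Their part in other results was not tested beyond leaving them out.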

How the results depend on the processing

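The scaling mattered most. With plain totals the nuclear median of colon against SI was 1.18 in WT and 1.28 in 9S/T-A, and the mitochondrial median 0.29 and 0.19. All genes called then split 86.5% higher in WT colon and 88.4% in 9S/T-A, against 52.1% and 54.0% with TMM. Over all 105 members, those below 0 went from 15 to 4 in WT and from 25 to 3 in 9S/T-A. Named genes whose log2 fold change turned with plain totals were, for WT colon against SI Cox6b2 0.15, mt-Atp6 0.69, mt-Co2 0.63, mt-Co3 0.73, mt-Cytb 0.45, mt-Nd1 0.29, mt-Nd3 0.16, mt-Nd5 0.088, for 9S/T-A colon against SI Cox6b2 0.46, mt-Atp6 0.46, mt-Atp8 0.31, mt-Co1 0.56, mt-Co2 0.38, mt-Co3 0.46, mt-Cytb 0.14, mt-Nd1 0.19, mt-Nd3 0.15, mt-Nd5 0.0058, mt-Nd6 0.35, Ndufs4 0.62, Uqcrq 0.46, for genotype in SI Cox5a -0.10, Cox6b1 -0.059, Uqcrfs1 -0.088, for genotype in colon Atp5a1 -0.031, Atp5b -0.041, Cox5a -0.0060, Cox6a1 -0.014, mt-Nd2 -0.039, mt-Nd3 -0.0038, Ndufa4 -0.032, Ndufs1 -0.023, Sdhb -0.038, for the product term Cox4i1 0.013, Cox7a1 0.033, Cox7a2 0.052, Cox7a2l 0.029, Cox8a 0.058, Uqcrfs1 0.030. With all 24 libraries in 1 fit those that turned were, for WT colon against SI mt-Co3 0.025, for genotype in colon Atp5a1 -0.0038, Atp5b -0.016, Ndufa4 -0.016, Ndufs1 -0.0069, Sdhb -0.015. With libraries numbered 7 left out those that turned were, for WT colon against SI mt-Co1 -0.014, mt-Nd6 -0.25, for genotype in colon Atp5b -0.0015, mt-Atp6 0.073, mt-Co1 0.053, mt-Co2 0.13, mt-Co3 0.019, mt-Nd4 0.26, mt-Nd4l 0.33, mt-Nd6 0.41, Ndufa4 -0.039, Ndufs1 -0.018, Sdhb -0.0077, for the product term mt-Nd1 0.22, mt-Nd2 0.24, mt-Nd3 0.25, mt-Nd4 0.12, mt-Nd4l 0.24, mt-Nd5 0.27, mt-Nd6 0.12, Sdhb -0.0013. With no filter those that turned were, for WT colon against SI mt-Co3 0.020. With the replicate block those that turned were, for WT colon against SI mt-Co3 0.013, mt-Nd6 -0.013, for genotype in colon mt-Atp8 -0.0090, mt-Nd6 0.093. Without 1 library, values that turned for WT colon against SI ran over mt-Atp6 -0.17 to 0.17, mt-Co2 -0.22 to 0.11, mt-Co3 -0.11 to 0.20, mt-Nd6 -0.35 to 0.29. Without 1 library, values that turned for genotype in SI ran over mt-Atp8 -0.65 to 0.33, Cox6a1 -0.11 to 0.042, Cox7a2 -0.088 to 0.060, Cox8a -0.093 to 0.032, mt-Nd3 -0.13 to 0.38, Sdhb -0.12 to 0.047, Cox5a -0.060 to 0.087, Cox6b1 -0.021 to 0.11, Uqcrfs1 -0.059 to 0.10, Cox7a1 -0.057 to 0.31, mt-Nd2 -0.032 to 0.44, mt-Nd5 -0.036 to 0.43, Cox4i1 -0.17 to 0.00031, Ndufv1 -0.15 to 0.0088, Uqcrc1 -0.17 to 0.021. Without 1 library, values that turned for genotype in colon ran over mt-Nd2 -0.20 to 0.24, Ndufa4 -0.044 to 0.047, Sdha -0.087 to 0.057, Sdhb -0.044 to 0.055, Cox6b1 -0.082 to 0.020, Cox6b2 -0.076 to 0.17, Cox7a2 -0.073 to 0.014, Cox8a -0.10 to 0.0097, mt-Atp8 -0.25 to 0.30, mt-Nd1 -0.14 to 0.26, mt-Nd3 -0.13 to 0.20, mt-Nd5 -0.18 to 0.29, Ndufb8 -0.072 to 0.016, Ndufv1 -0.073 to 0.050, Uqcrc1 -0.11 to 0.026, Uqcrfs1 -0.080 to 0.039, mt-Co2 -0.19 to 0.050, mt-Nd4 -0.27 to 0.13, mt-Nd4l -0.36 to 0.22, mt-Nd6 -0.16 to 0.36, Atp5b -0.064 to 0.067, Ndufs1 -0.021 to 0.060, Atp5a1 -0.061 to 0.10, Cox5a -0.030 to 0.10, Cox6a1 -0.047 to 0.12, Cox7a1 -0.075 to 0.21. Without 1 library, values that turned for the product term ran over mt-Atp8 -0.21 to 0.79, Cox7a1 -0.23 to 0.16, Cox5a -0.071 to 0.095, Cox6a1 -0.036 to 0.14, mt-Nd1 -0.39 to 0.068, mt-Nd2 -0.42 to 0.069, mt-Nd3 -0.33 to 0.19, mt-Nd5 -0.37 to 0.11, Ndufb8 -0.045 to 0.12, Ndufv1 -0.040 to 0.12, Sdhb -0.050 to 0.11, Uqcrc1 -0.072 to 0.11, Cox4i1 -0.14 to 0.032, Cox7a2 -0.11 to 0.057, Cox7a2l -0.13 to 0.064, Cox8a -0.10 to 0.045, Uqcrfs1 -0.13 to 0.039, mt-Nd4l -0.57 to 0.022. Outside plain totals, none of the values that turned was called in either fit. The cause of these changes was not tested. Without the 20 most abundant genes in the total, the nuclear share was 1.26% in WT SI, 1.17% in 9S/T-A SI, 2.01% in WT colon and 1.95% in 9S/T-A colon, and the mitochondrial share 3.48% and 3.80% in the SI groups, beside 3.68% and 3.41% in the colon groups, so that in 9S/T-A colon then lay below SI. With copies added, the mitochondrial share was 3.24% in WT SI, 3.49% in 9S/T-A SI, 5.14% in WT colon and 4.63% in 9S/T-A colon.

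Leaving out 1 library gave nuclear medians of 0.43 to 0.56 in WT and 0.41 to 0.54 in 9S/T-A, mitochondrial medians of -0.63 to -0.16 and -0.72 to -0.41, and 71 to 78 and 61 to 68 members higher in colon. For 9S/T-A against WT, 0 members were called in either tissue under every alternative run. Libraries of a number also deviated together between the genotypes, though unevenly, with correlations of -0.0949 to 0.699 in SI and 0.0199 to 0.855 in colon. The means were 0.191 in SI and 0.414 in colon, beside 0.291 (WT) and 0.369 (9S/T-A) between tissues. Of 6 pairs, 4 exceeded 0.1 in SI and 5 in colon, and what such libraries share was not tested. With the replicate block 477 genes of all tested were called in SI (315 without) and 385 in colon (54 without). DESeq2 called 779 and 238. In the product term the block gave 1 member called (0 without). Of 4806 values of named genes under alternatives, 4390 kept direction and call, 64 lost a call, 41 gained one and 311 turned, 39 of them with plain totals. With 6 libraries a group, low genes such as Cox8b and Cox6b2 rest on few counts.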
